A study of Homo sapiens with 3 samples.

Results

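The MYB factors, FOXM1 and the LIN subunits of the MuvB complex were followed in LNCaP cells, an established human prostate carcinoma line that responds to androgens, 72 hours after siRNA transfection. The series held 3 arrays, 1 with a negative control siRNA and 1 each with siSE1 and siSE2, which were directed against the chimeric transcript SLC45A3-ELK4. All arrays shared the cell line, the serum-containing medium and the RNAiMAX transfection. On the siSE2 array the label field for transfection gives siSE1, whereas its title, source name and description give siSE2, and the title was followed. If that field is right, both siRNA arrays carry siSE1. In that case nothing in the labels ties them to separate cultures, so the spread between them may be technical. By the titles this spread also includes the difference between the siRNAs.

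The 8 genes were MYB, MYBL1, MYBL2, FOXM1, LIN9, LIN37, LIN52 and LIN54, of 18417 genes with a probe set naming them alone. They were selected by name as a family, and MYBL1 was selected on its lower values with both siRNAs in the same comparison, so all values of the 8 genes are given as a description with no test. Each had exactly 1 probe set, and all 8 passed the filter on dim genes, a mean log2 value of at least 5.12, which left 12892 genes.

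The MYB family consists of transcription factors that share repeats for DNA binding. MYB is best known from blood progenitors and glands, MYBL1 (A-MYB) from male meiosis, and MYBL2 (B-MYB) from nearly all dividing cells. LIN9, LIN37, LIN52 and LIN54, with RBBP4, form MuvB, which changes partners through the cell cycle. In resting cells it joins RBL1 or RBL2 and a repressor E2F in the DREAM complex, which silences cell cycle genes. From S phase MuvB binds B-MYB, and FOXM1 is then recruited, which switches on genes needed for G2 and mitosis. LIN54 contacts DNA at the cell cycle genes homology region (CHR), a short promoter element, while E2F proteins contact E2F sites in promoters of genes used at the G1/S transition.

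The sequences below show letter matches, not read as bound sites, to the element that LIN54 contacts. They come first from the promoter of LIN54 itself and then from promoters of known targets of B-MYB, MuvB and FOXM1. They were read from RefSeq promoter windows (GRCh38.p14) of 250 bases before and 50 after each start site. Windows matched 6 of the 8 genes, and MYBL1 and FOXM1 were not matched. The CHR was searched as TTTGAA or TTCGAA on both strands, and the capitals mark it. The LIN54 stretch (chr4:83010835-83011084, minus strand) covers the 250 bases before its upstream start, with the match beginning at position -89, where -1 is the base before the start.
LIN54: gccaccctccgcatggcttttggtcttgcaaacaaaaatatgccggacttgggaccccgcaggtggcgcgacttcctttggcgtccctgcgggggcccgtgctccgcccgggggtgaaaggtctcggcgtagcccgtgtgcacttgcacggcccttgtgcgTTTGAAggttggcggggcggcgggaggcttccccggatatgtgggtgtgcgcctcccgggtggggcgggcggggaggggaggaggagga

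LIN37 and LIN9 also held a CHR match. In LIN37 it lay at position -182 of 1 of 2 windows, overlapped by a MYB site match at -178. In LIN9 TTCGAA lay at -60 and TTTGAA at -3 of 1 of 3 windows. LIN52 held no CHR match but an E2F site match at position -25, which the capitals mark in the 250 bases before its start (chr14:74084706-74084955, plus strand). The E2F site was searched as TTTCCCGC, TTTGGCGC, TTTCGCGC or TTTGCCGC on both strands.
LIN52: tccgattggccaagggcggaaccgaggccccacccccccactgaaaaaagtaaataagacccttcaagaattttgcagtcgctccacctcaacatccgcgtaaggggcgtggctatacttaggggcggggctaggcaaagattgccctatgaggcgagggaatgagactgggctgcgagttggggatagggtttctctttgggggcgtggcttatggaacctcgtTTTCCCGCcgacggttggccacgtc

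Stretches of 30 bases around the match nearest to the start are shown to set the elements side by side. The G2/M and G1/S genes were taken in the order of their change, described further on, but only if they held a match. More lowered genes were passed over, among them MELK, RFC5 and RFC4. The stretches therefore do not stand for the most lowered genes. Among genes with a window that passed the test (limma, described further on), 1 G2/M gene held a CHR and 1 did not. For G1/S genes 1 held an E2F site and 3 did not. KIF14, SGO1, ASPM and CKS1B are from the G2/M list and hold a CHR, in the given or the reverse orientation. They lie at chr1:200620733-200620762 (minus strand), chr3:20186192-20186221 (minus strand), chr1:197146765-197146794 (minus strand) and chr1:154974639-154974668 (plus strand).
KIF14: gcggggcgcccaTTCAAAttgcggccttct
SGO1: gaggcggaaaatTTCGAAtgtggcggcggt
ASPM: cggatgcaatcaTTCAAAtgaagcgccgcc
CKS1B: gcgggcggcgtgTTTGAAagcgaggccaaa

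GINS3, CDC6, CLSPN and GINS1 are from the G1/S list and hold an E2F site. They lie at chr16:58392455-58392484 (plus strand), chr17:40287875-40287904 (plus strand), chr1:35769965-35769994 (minus strand) and chr20:25407667-25407696 (plus strand).
GINS3: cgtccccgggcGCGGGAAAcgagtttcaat
CDC6: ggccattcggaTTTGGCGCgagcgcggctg
CLSPN: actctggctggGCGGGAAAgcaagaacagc
GINS1: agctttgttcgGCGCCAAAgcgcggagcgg

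Of the 8 genes, 7 read below the control array on both siRNA arrays, and MYB did so on 1 only. Over all genes tested, 5382 of 12892 (41.7%) lay below the control on both. The median log2 difference of the 8 genes was -0.25, with -0.22 for siSE1 and -0.30 for siSE2, beside -0.019 for all genes tested. Both differences use the same control array. On these bulk samples, fewer cells in the phases that use these genes and less RNA per cell cannot be told apart.

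**Figure D1:**
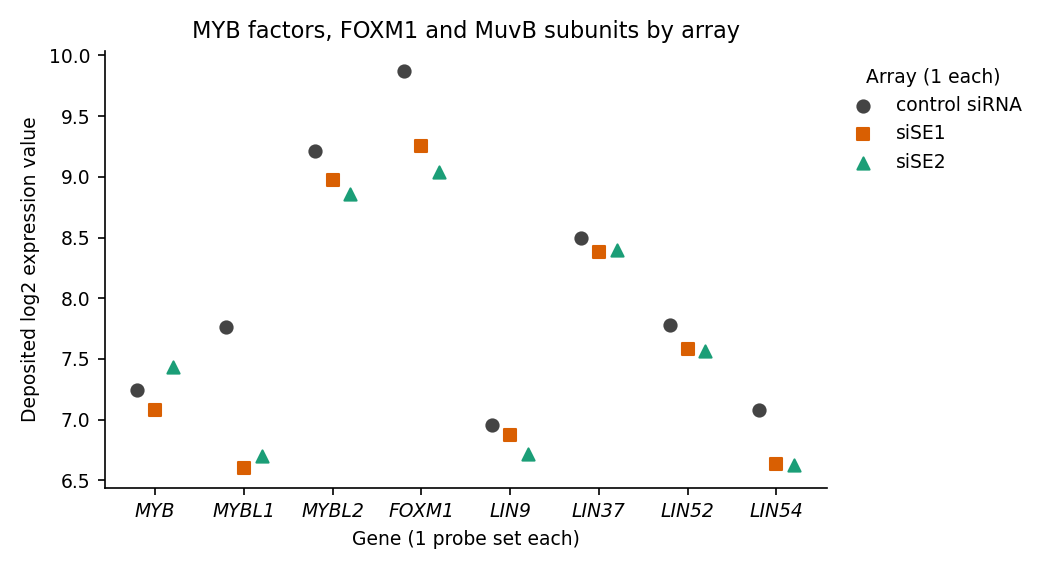
Deposited log2 expression value (y axis) of each gene (x axis) on each of the 3 arrays, 1 point per array. MYBL1 sits at 7.76 on the control array against 6.60 and 6.70, and FOXM1 at 9.88 against 9.25 and 9.04, while the points of MYB straddle the control; levels of different genes are not comparable.

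MYBL1 had log2 values of 7.76 (control), 6.60 (siSE1) and 6.70 (siSE2). Both siRNA arrays lay far below the control and 0.10 apart from each other. The mean difference was -1.11 ± 0.14 (SE, n = 2 against 1), a level 2.16-fold lower, at rank 14 of 12892 counted from the lowest difference. By siRNA it was 2.24-fold lower with siSE1 and 2.08-fold lower with siSE2. It was the member chosen for this difference.

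MYBL2, the B-MYB gene and the family member that joins MuvB in dividing cells, had log2 values of 9.21 (control), 8.98 (siSE1) and 8.86 (siSE2). Both siRNA arrays lay below the control, by less than for MYBL1. The difference was -0.30 ± 0.14 (SE), 1.23-fold lower, and 14.8% of genes tested had a lower one.

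MYB had log2 values of 7.25 (control), 7.08 (siSE1) and 7.43 (siSE2). The control lay between the siRNA arrays, so the groups overlapped. The mean difference was 0.010 ± 0.17 (SE), and its sign turned with equal array medians (-0.029). The siRNA arrays stood 0.35 apart, a wider gap than for 91.8% of genes tested, of which the median gap was 0.12.

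FOXM1, the forkhead factor of G2 and mitosis, had log2 values of 9.88 (control), 9.25 (siSE1) and 9.04 (siSE2). Both siRNA arrays lay below the control, siSE2 the lower by 0.21. The mean difference was -0.73 ± 0.15 (SE, n = 2 against 1), 1.66-fold lower, at rank 154 of 12892 from the lowest. By siRNA it was 1.54-fold lower with siSE1 and 1.78-fold lower with siSE2.

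**Figure D2:**
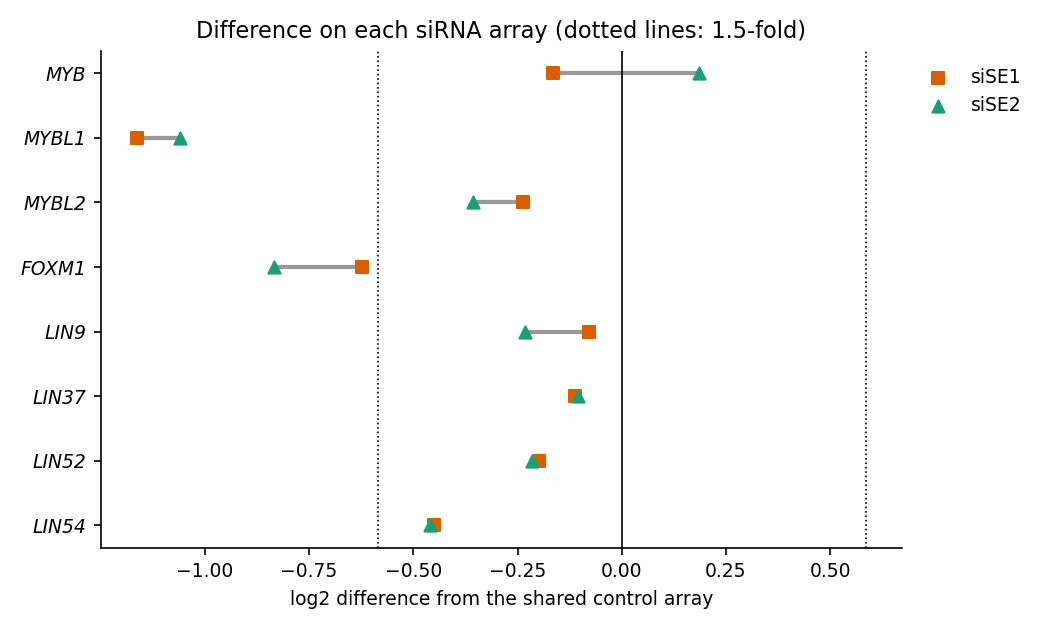
log2 difference of siSE1 (squares) and siSE2 (triangles) from the shared control array (x axis) for each gene (y axis); grey lines join the arrays, and dotted lines mark 1.5-fold. MYBL1 and FOXM1 lie beyond 1.5-fold lower on both arrays, LIN54 reaches 1.37-fold, and MYB lies on both sides of 0.

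Among the MuvB subunits LIN54, which carries the DNA contact, stood lowest. Its log2 values were 7.08 (control), 6.63 (siSE1) and 6.62 (siSE2), so the siRNA arrays were nearly equal and both below the control. The difference was -0.45 ± 0.14 (SE), 1.37-fold lower, and 6.37% of genes tested had a lower one.

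LIN52, the subunit whose phosphorylation by DYRK1A lets MuvB join RBL1 and RBL2, and which also contacts B-MYB, had log2 values of 7.78 (control), 7.58 (siSE1) and 7.56 (siSE2). The difference was -0.21 ± 0.14 (SE). LIN9, which with LIN52 forms the B-MYB contact, read 6.95, 6.87 and 6.72 in the same order, a difference of -0.16 ± 0.15. Its siSE1 array was only 0.078 below the control.

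LIN37, needed for repression by DREAM, read 8.50 on the control array and 8.39 with each siRNA. This was the smallest difference of the 4 subunits, -0.11 ± 0.14 (SE), 1.08-fold lower. All 4 subunits thus lay below the control on both siRNA arrays, with a median difference of -0.18. The differences of LIN9, LIN37 and LIN52 were smaller in size than that of LIN54, and no test is given for any of the 4. LIN54, LIN52 and LIN37 had siRNA arrays 0.0088, 0.018 and 0.0084 apart, far closer than the median gap of 0.12. The SE draws on the spread of all genes and so does not become small for them.

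At least 1.5-fold lower with both siRNAs were 2 of the 8 genes, MYBL1 and FOXM1, and 0 were as much higher. Over all genes tested 1.53% were that far lower and 0.582% higher. MYBL1 entered the list for this difference, so nothing is read from the count. FOXM1 lay just inside the threshold, with 1.54-fold as the smaller of its differences, and LIN54 outside, with 1.37-fold. With cyclic loess normalization only MYBL1 met the threshold, as the smaller difference of FOXM1 became 1.4985-fold.

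The genes with differences most like those of the transcription factors were found by the distance between their pairs of differences (siSE1 and siSE2) and those of the factor, over 3 arrays that share 1 control. Nearest to MYBL1 were GDPD3, the histone genes H2AC20 and H2AC14, ZNF738 and ETNK2, at distances of 0.036 to 0.092 on the log2 scale. Because histone genes resemble each other closely in sequence, the values of these 2 are uncertain. Nearest to FOXM1 were SGO1, which encodes shugoshin, a protector of centromere cohesion, HMGB3, a chromatin protein gene, and CLU, which encodes the secreted chaperone clusterin, at distances of 0.018 to 0.026. MYBL2 had closer neighbours, SLC1A5, a glutamine transporter gene, C3orf62 and SELENOK, at 0.0016 to 0.0056, in a range of differences that many genes share.

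The partners of MuvB and the regulators of B-MYB and FOXM1 were mixed. Of 18 genes in this list 0 passed the test in either direction (limma over all genes, adjusted p under 0.05), where 0.714% of genes tested passed lower and 0.248% higher. A list of this size is too short for a count of 0 to differ from that background. The spread in this fit comes from the siRNA arrays only, and the variation of the single control array was not measured. Of these genes 12 lay below the control on both siRNA arrays, 4 above it on both and 2 on either side. The list's median difference was -0.20. At an unadjusted p under 0.05 there were 4 lower and 1 higher. The share of all genes at this unadjusted threshold was not counted, so such counts, here and for the lists below, have no background. CCNF, PLK1, CDK1, CCNA2 and CCNB1 are also in the G2/M list below and RBL1 in the G1/S list. They are therefore counted again there. By size, 1 gene of the list of partners and regulators was at least 1.5-fold higher and 0 lower.

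That gene was E2F5, a repressor E2F that works with RBL2. It had log2 values of 7.01 (control), 7.67 (siSE1) and 7.86 (siSE2), or 0.76 ± 0.15 higher (SE; limma, adjusted p = 0.0539), opposite to most of the list. Whether E2F5 passed depended on the setting. It did with quantile normalization, cyclic loess and the highest probe set per gene. It did not with equal array medians, no filter on dim genes or the filter set at the 50th percentile. CCNF, the cyclin F gene, whose product restrains B-MYB, read 7.46, 6.93 and 6.82, a difference of -0.59 ± 0.14 (limma, adjusted p = 0.0877). CDK2 and CCNA2, the kinase and the cyclin A that act on B-MYB and FOXM1, differed by -0.56 ± 0.14 and -0.53 ± 0.14 (limma, adjusted p = 0.0929 and 0.106). RBL1, which encodes the p107 pocket protein, differed by -0.38 ± 0.14 (adjusted p = 0.217).

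Other partners are given for their role in the complexes and were named after their values were seen. RBBP4, the histone-binding subunit of MuvB, had log2 values of 10.78 (control), 10.80 (siSE1) and 10.91 (siSE2). These lay 0.021 and 0.13 above the control, within or near the median gap of 0.12 between siRNA arrays. RBL2, which encodes p130, read 7.21, 6.80 and 7.21, so siSE1 alone stood lower. TFDP1, the E2F dimer partner, had the same shape, with 10.29, 9.87 and 10.24. E2F4 read 9.01, 8.77 and 8.97, and DYRK1A, the LIN52 kinase gene, read 8.79, 8.53 and 8.43. For RBL2, TFDP1 and E2F4 siSE2 lay within 0.055 of the control.

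Known targets of B-MYB, MuvB and FOXM1 in G2 and mitosis stood lower on both siRNA arrays. Of the 63 measured genes of this list, 3 fell, 0 rose and 60 did not pass (limma over all genes), so 4.76% fell beside 0.714% of all genes tested. At an unadjusted p under 0.05, 38 were lower and 0 higher. No share of all genes at that unadjusted threshold was counted to set beside this. On both siRNA arrays 58 of the 63 genes (92.1%) lay below the control, beside 41.7% of all genes. The median difference was -0.40, with -0.35 for siSE1 and -0.46 for siSE2, and the range was -0.90 to 0.070. Mitotic genes were already known to be lower in these data when the list was drawn up, so its direction is not independent evidence.

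The 3 genes that fell, against 1 control array, were KIF14, PBK and MELK. KIF14, a kinesin of cytokinesis, had log2 values of 7.28 (control), 6.30 (siSE1) and 6.46 (siSE2), and fell 1.86-fold (limma, adjusted p = 0.0359). PBK, a mitotic kinase gene, read 8.18, 7.43 and 7.29 and fell 1.76-fold (limma, adjusted p = 0.0398). MELK, another kinase gene, read 7.69, 6.91 and 6.98 and fell 1.68-fold (limma, adjusted p = 0.0471). SGO1 did not pass at 1.64-fold lower (limma, adjusted p = 0.0616), nor did its relative SGO2 at -0.61 ± 0.14 (adjusted p = 0.0759). CDK1 and CCNB1, the kinase and the cyclin B that drive entry into mitosis, were named after their values were seen. CDK1 read 8.08, 8.06 and 8.23, at the top of the list, and CCNB1 read 8.57, 8.43 and 8.34. The calls of all 3 genes were lost with no filter on dim genes (limma, adjusted p of 0.124 to 0.136) or the filter set at the 50th percentile (0.0503 to 0.0559), and that of MELK with equal array medians (0.0522).

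Genes of the G1/S transition, which DREAM silences through E2F sites and which are not main targets of B-MYB and FOXM1, were set beside them. Of 49 measured genes 6 fell, 0 rose and 43 did not pass (limma over all genes), or 12.2% fallen beside 0.714% of all genes tested. At an unadjusted p under 0.05, 36 were lower and 1 higher, and the direction of this list too was known when it was drawn up. The median difference was -0.43, with -0.50 for siSE1 and -0.41 for siSE2, and 47 (95.9%) lay below the control on both siRNA arrays, beside 41.7% of all genes. CDC45, a subunit of the replicative helicase, had log2 values of 8.17 (control), 7.12 (siSE1) and 7.38 (siSE2), and fell 1.89-fold (limma, adjusted p = 0.0378). The call of CDC45 was lost with no filter on dim genes and with the filter set at the 50th percentile. The G2/M median was the lower with siSE2 and the G1/S median the lower with siSE1, and the difference between the lists was not tested. CCNE1, which encodes cyclin E, stood opposite to its list, with 7.30, 7.87 and 8.01, a difference of 0.64 ± 0.15 (SE). It passed with quantile normalization, but not in the fit used. Nor did it pass with equal array medians, cyclic loess, the other filters or the highest probe set per gene. Of the 49 genes 0 passed with no filter, and 3 did when the filter was set at the 50th percentile.

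**Figure D3:**
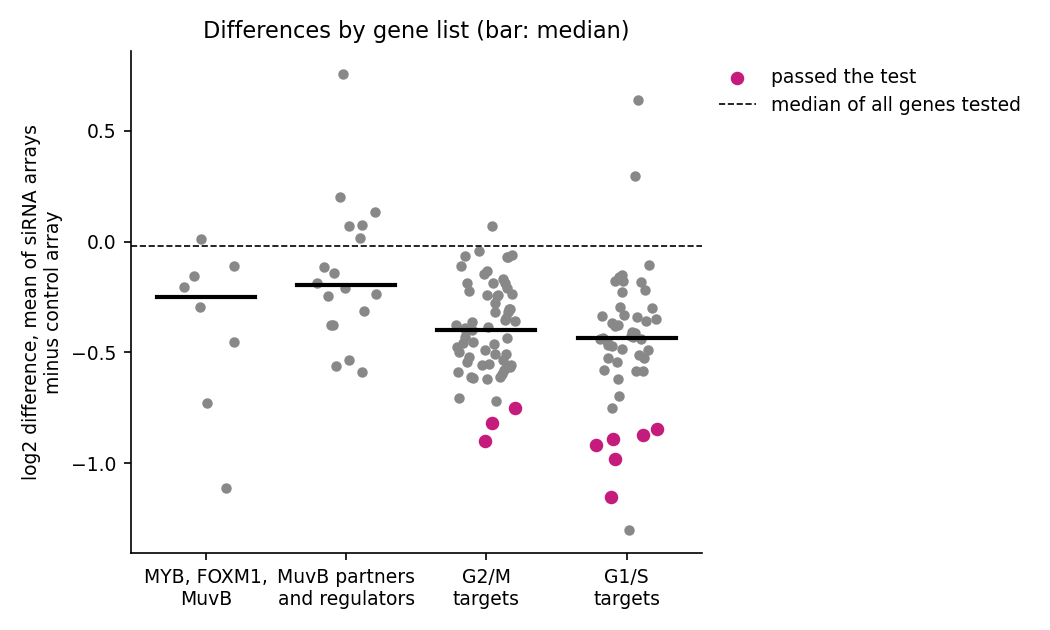
log2 difference of the mean of the siRNA arrays from the control array (y axis) for the genes of 4 lists (x axis), 1 point per gene, with the list median as a bar and the median of all genes tested as a dashed line. Coloured points passed the test (3 G2/M and 6 G1/S targets). For the genes of the first list no test is given, so none is coloured.

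The promoters of these lists differed in the elements that MuvB and E2F proteins contact. A CHR match stood in 68.7% of 67 windows of G2/M genes and in 6.78% of 59 windows of G1/S genes, beside 16.4% of all 35116 windows. E2F site matches stood in 5.97%, 45.8% and 3.31% in the same order. The CCAAT box (CCAAT on either strand), which often accompanies the CHR, was matched in 73.1%, 57.6% and 34.6%. MYB site matches (AACGG or AACTG on either strand, which can overlap a CHR) were common everywhere, in 67.2%, 49.2% and 52.4%. Of the 10 windows of LIN and MYB genes that could be matched, 4 held a CHR, 2 a CCAAT box, 1 an E2F site and 5 a MYB site. Windows of 1 gene are not separate: the 2 of LIN54 overlap and share the same CHR match. All 3 windows of LIN9 are among those with a MYB site. A match is a sequence of letters in a window and was not read as a bound site.

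**Figure D4:**
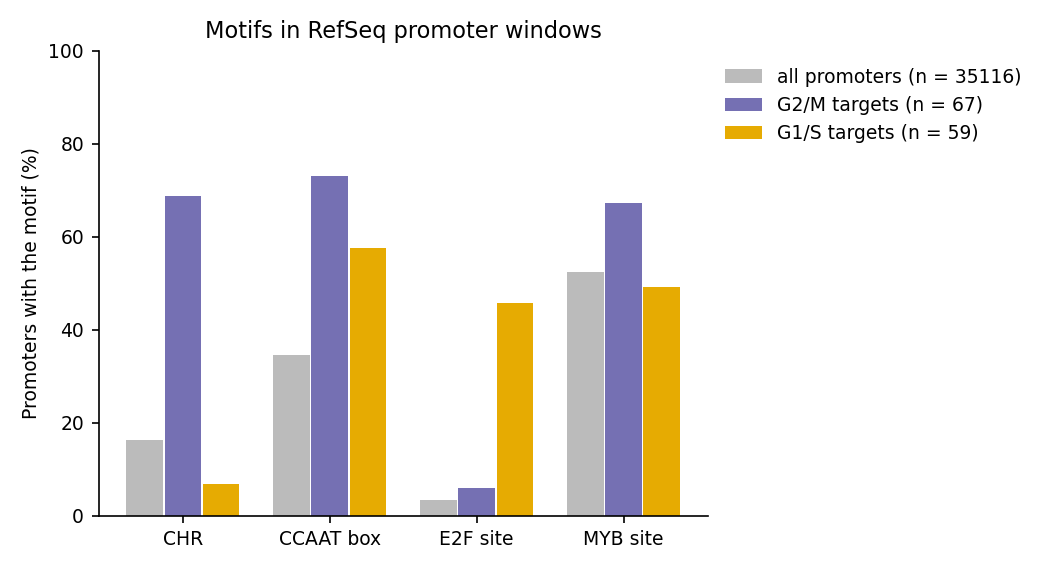
Share of RefSeq promoter windows (y axis, %) that hold each motif (x axis) among all windows and those of the G2/M and G1/S lists, 1 bar per set. The CHR bar is highest for G2/M targets (68.7%) and the E2F bar for G1/S targets (45.8%).

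Within the G2/M list the medians with and without a CHR lay close together. The 41 genes with a CHR had a median difference of -0.40 and the 13 without one -0.36. At least 1.5-fold lower with both siRNAs were 4.88% of the former and 7.69% of the latter. Within the G1/S list the medians were -0.44 for the 26 genes with an E2F site and -0.38 for the 17 without. At least 1.5-fold lower with both siRNAs were 3 genes of each, or 11.5% and 17.6%. Over the 10244 tested genes with a promoter window, the 1518 with a CHR had a median of -0.069 and the 8726 without -0.021. At least 1.5-fold lower with both siRNAs were 2.31% of the former and 1.40% of the latter. As far higher were 0.856% and 0.539%, so both shares were larger with a CHR. The 652 genes with an E2F site had a median of -0.099 beside -0.024 for the 9592 without. With the G2/M and G1/S lists left out the medians were -0.063 with a CHR and -0.079 with an E2F site, beside -0.026 for all. These shifts were not tested.

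Cofactors of MYB and proteins that control its turnover are described by their range. Of 13 genes 0 passed in either direction (limma), beside 0.714% lower and 0.248% higher over all genes. Here and in the next 3 lists the genes are too few for a count of 0 to stand apart from that background. At an unadjusted p under 0.05 there were also 0, with a median difference of -0.039 and a range of -0.22 to 0.17. TAF12, a TFIID subunit that MYB engages, differed by -0.22 ± 0.15, and MYBBP1A, a MYB-binding repressor gene, by 0.13 ± 0.14 (limma, adjusted p = 0.475 and 0.659). Of 12 targets described for MYB in blood cells, 8 passed the filter on dim genes and 0 passed the test (limma; 1 higher at an unadjusted p under 0.05). The gene that was higher, CCNE1, is also in the G1/S list, and CCNB1 of these targets is in the G2/M list. The median difference of the 8 genes was 0.13. ADA, which encodes adenosine deaminase, differed by 0.28 ± 0.14 and GATA3, a transcription factor gene, by 0.29 ± 0.16.

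Relatives by domain stood near the median of all genes. Of 12 measured genes for other proteins with MYB or SANT repeats, 0 passed (limma; 1 higher at an unadjusted p under 0.05), and their median difference was -0.10. SMARCC1, a SWI/SNF chromatin remodelling subunit, was highest, with 9.16 (control), 9.83 (siSE1) and 9.80 (siSE2) and a difference of 0.66 ± 0.14 (SE). It passed with quantile normalization, but not in the fit used. Nor did it pass with equal array medians, cyclic loess, the other filters or the highest probe set per gene. Of 15 other forkhead genes 0 passed (limma; 1 higher at an unadjusted p under 0.05), with a median of -0.043 and a range of -0.26 to 0.33, against -0.73 for FOXM1. FOXO3, which opposes FOXM1 at shared sites, was the highest of them, with 6.40, 6.70 and 6.74 and a difference of 0.33 ± 0.14 (limma, adjusted p = 0.269).

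The parent genes of the targeted transcript and the identity of the cells were checked. SLC45A3 differed by -0.46 ± 0.15 and ELK4 by -0.18 ± 0.16 (limma, adjusted p = 0.154 and 0.582); the probe sets read whole genes and do not check the knockdown of the chimera. All 7 luminal prostate markers with a probe set of their own passed the filter, with 3 below the control on both siRNA arrays and 4 above it on both, and 0 of them passed the test (limma). KLK3, the prostate-specific antigen gene, differed by -0.39 ± 0.14, while KRT8 read higher by 0.43 ± 0.14 and KRT18 by 0.42 ± 0.15, both being keratins of luminal cells. ACP3, the prostatic acid phosphatase gene, stood highest of these at 0.76 ± 0.15 (SE). It passed with quantile normalization and cyclic loess, but not in the fit used. Nor did it pass with equal array medians, the other filters or the highest probe set per gene. The part of these markers in the results was not tested. Of the blood cell markers PTPRC, CD3E and HBB stayed under the filter. The summed linear signal of the 5 blood cell markers was 98.7 (control), 152 (siSE1) and 122 (siSE2), led by LYZ, which read 4.41, 6.09 and 5.11; its part in the results was not tested. Stromal markers summed to 385, 383 and 383, and the basal markers to 119, 137 and 146.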

How the data were processed

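The authors deposited log2 expression values for 33297 probe sets on 3 arrays, and the submitters' processing notes name Affymetrix Expression Console as the tool. Its version and algorithm, and the build and background correction, are items not given in the sources used here. The log2 scale was taken from the range, 1.43 to 13.9, and the array medians, 5.80, 5.84 and 5.84. A single gene was named for 19460 probe sets by the platform annotation, and symbols were updated by gene identifier for 19429 of them. Probe sets of a gene were averaged, and genes with a mean below the 30th percentile were left out, which left 12892. The siRNA arrays (n = 2) were compared with the control array (n = 1) by limma 3.58.1 (lmFit and eBayes, R 4.3.3), and p-values were adjusted over all genes by Benjamini-Hochberg, with 0.05 as the threshold. The fit has 1 residual degree of freedom, taken from the siRNA arrays, and treats the spread of the control, which was not measured, as equal to theirs. The script was tested on simulated data with equal noise on all arrays. Precision is limited by the number of arrays.

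The 8 genes and all lists were chosen with earlier results of these data known. The 8 genes were part of the fit and of its counts over all genes, but no test of them is reported. Genes named from a list are up to 5, ordered by the smaller of their siSE1 and siSE2 changes where both have 1 sign; for MYBL1 the 5 nearest genes and for MYBL2 and FOXM1 the 3 nearest are named, as are SLC45A3 and ELK4. Promoter windows come from RefSeq (GRCh38.p14). Alternatives covered 3 normalizations, 2 filters, the highest probe set per gene, an intensity trend, 2 fold thresholds and leaving out each siRNA array.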

Additional observations from a re-analysis of the deposited data

How the results depend on the processing

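The 7 genes other than MYB kept their negative sign under the 6 alternatives of normalization, filter and probe set. MYBL1 ran from -1.15 to -1.06, FOXM1 from -0.77 to -0.70, MYBL2 from -0.34 to -0.26, LIN54 from -0.49 to -0.42, LIN52 from -0.25 to -0.15, LIN9 from -0.20 to -0.11 and LIN37 from -0.15 to -0.057. MYB ran from -0.029 to 0.056. Calls of the fit depended on the filter: with none, 0 genes were lower and 1 higher over all genes, and 0 G2/M and 0 G1/S targets were lower. With the filter at the 50th percentile 20 were lower and 15 higher (92 and 32 with the filter used), with 0 G2/M and 3 G1/S targets lower. Genes higher by the fit numbered 63 with quantile normalization, 21 with equal array medians and 52 with an intensity trend. By size, equal array medians put 9 G2/M targets at least 1.5-fold lower in place of 4, and cyclic loess left 1 of the 8 genes in place of 2. At 1.3-fold 750 genes were lower and 332 higher, with 25 G2/M and 22 G1/S targets lower; at 2-fold 13 and 11, with 0 and 1, and 1 of the 8 genes. Leaving out 1 siRNA array gives values with no test. With siSE2 or siSE1 alone, genes past 1.5-fold numbered 364 and 551 lower and 155 and 187 higher. In the same order, G2/M targets past it in the lower direction numbered 18 and 8, and G1/S targets 9 and 16. The G1/S median was -0.41 with siSE2 alone and -0.50 with siSE1 alone. The causes of these differences between settings were not tested. The median of all genes moved by under 0.1 in each alternative.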
